A study of Mus musculus with 30 samples.

Results

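The 45 genes described here belong to the cell division cycle. They comprise 16 genes of DNA replication in S phase, 22 genes of mitosis and 7 regulators that switch these genes on or off. They were chosen by name, from known function, but with earlier results of these data known. All 45 were matched by symbol to Ensembl identifiers among the 55401 genes of each of 3 tables of FPKM values. FPKM counts fragments per length of transcript and per mapped fragments of the library, so that levels of different genes can be set side by side. The comparison of the replication with the mitosis members runs over 15 groups of mouse cells with 2 RNA-seq libraries each.

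The study reprogrammed mouse embryonic fibroblasts (MEFs) of passages 1 to 3 to induced pluripotent stem cells (iPSCs). In the first table, called the 4-factor arm here, MEFs labelled 129XOG2 were infected with lentiviruses carrying Oct4, Sox2, Klf4 and c-Myc and given reprogramming medium with doxycycline at 2 µg/ml. These cells were sampled at day 2, day 4 and day 7, beside 129XOG2 iPSCs and 129XOG2 MEFs in MEF medium at day 0. In the CF1 arm, CF1 MEFs were given a reprogramming medium whose components the labels do not list, under a series title that speaks of chemical reprogramming. Cells were sampled at day 4, day 8 and day 12, beside CF1 iPSCs and CF1 MEFs at day 0. In the removal table, 129XOG2 MEFs went through the chemical protocol and lost 1 small molecule between day 8 and day 12, with collection at day 12. The arms are labelled -CHIR, -PD, -VC and -WS, against an arm labelled CT, whose title alone carries no minus sign and which is taken here as the arm with nothing removed. CT, VC and WS are not spelled out in the labels. The iPSCs of both arms were kept on feeders with the cytokine LIF, the GSK3 inhibitor CHIR99021 at 3 µM and the MEK inhibitor PD0325901 at 0.2 µM. The labels give neither the promoter of the lentiviral genes nor the number of iPSC lines, and do not say that the 2 libraries of a group came from separate cultures. P-values therefore measure only the spread between these libraries, which may be technical.

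Before S phase, the ATPase motor of the replicative helicase, a ring of Mcm2 to Mcm7, is loaded onto origins by Cdc6 and Cdt1. It is activated by joining Cdc45 and the GINS complex. E2F factors drive these genes late in G1 once cyclin-dependent kinases have inactivated the RB family. Genes of mitosis are transcribed later, in G2, through paired CHR and CCAAT elements. The DREAM complex represses them there in resting cells, and MYBL2 and then FOXM1 activate them in cycling cells. Pluripotent stem cells are known for short G1 phases and high cyclin E, whereas fibroblasts leave the cycle when crowded, starved or aged in culture.

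The libraries of a group resembled each other closely, with Pearson correlations between replicates of 0.9715 to 0.9961 on the log2 scale across the genes tested, a description over genes. The 4-factor day 4 libraries stood apart, since 556 genes differed by over 2-fold between them, against 254 in the 4-factor iPSCs and 28 to 141 in the other 13 groups. CT replicate 2 had 2.03% of its FPKM in 13 mitochondrial genes, against 5.77% to 8.12% in the other 9 removal libraries. In the CF1 arm that share was 10.7% to 13.7% at days 4 to 12, against 4.77% to 5.58% at day 0, and in the 4-factor arm 11.3% to 13.3% at day 7, against 5.08% to 5.35% at day 0. It was 9.03% and 5.2% in the 4-factor iPSC libraries, and its part in the changes was not tested. Summed FPKM of 10 fibroblast markers was 179 to 335 in the iPSCs of both arms, against 3369 to 28223 in all other groups. Summed FPKM of 10 naive pluripotency markers was 3471 to 4335 in the iPSCs, against 1.96 to 170 in all other groups, so the iPSC and MEF labels held. At CF1 day 12 that sum was 11.3 to 12.8, with 7 of the 10 markers below 1 FPKM. Summed FPKM of 10 macrophage markers was 12.4 to 13 at CF1 day 4 and 5.77 to 5.85 at CF1 day 12, against 268 to 288 in CF1 day 0 MEFs, and 10.1 to 31.6 across the 4-factor groups. The part of these other cells in the changes between CF1 day 0 and later days was not tested. Depth is not given with the tables. Exon overlap matters for 14 members, whose exons share bases with a neighbouring gene, and the sources used here do not say how the authors' counting treated strand. The overlap covers 67.3% of the exon bases of Gins2 (with Gse1), 29.3% of Kif20a (with Cdc23), 22.8% of Ube2c (with Tnnc2) and 17.4% of Ccne2 (with Ints8), so the values of these 4 genes are uncertain. It covers 12.5% of Ccna2 (with Exosc9) and 11.2% of E2f8 (with Gm2788), whose values share this limit to a lesser degree. Ccnb1, Ccnb2, Pcna and Tyms have pseudogenes with the same name stem.

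The promoters of the members were searched for elements of their known regulators. RefSeq promoter windows of 300 bases, running from 250 before to 50 after the start of transcription on build GRCm38.p6 (mm10), were held for 36 of the 45 members. These were 13 replication members, 18 mitosis members and 5 regulators. Each window was searched on both strands for E2F elements written TTTCCCGC, TTTGGCGC, TTTCGCGC or TTTGCCGC, for CHR elements written TTTGAA or TTCGAA, and for CCAAT. A gene counted when any of its windows held the element, since 2 members had more than 1 window. E2F elements were in 6 of 13 replication members (46.2%) and in 1 of 18 mitosis members (5.56%), Cdk1, against 2.6% of all 27025 genes with a window. CHR elements were in 14 of 18 mitosis members (77.8%) and in 3 of 13 replication members (23.1%), against 21.7% of all genes with a window. CCAAT was in 16 of 18 mitosis members (88.9%) and 9 of 13 replication members (69.2%), against 41.1% of all genes with a window. CHR and CCAAT stood together in 14 of 18 mitosis members (77.8%), 3 of 13 replication members (23.1%) and 2 of 5 regulators (40%), against 8.61% of all genes with a window. The difference between the lists was not tested, and the same holds for the other elements. The windows of 3 replication members (Mcm5, Cdc6 and Mcm6) and 3 mitosis members (Cdc20, Plk1 and Top2a) are printed as examples of windows with E2F elements and windows with CHR and CCAAT. They lie at chr8:75109259-75109558 (plus strand) for Mcm5, chr11:98907901-98908200 (plus) for Cdc6 and chr1:128359656-128359955 (minus) for Mcm6. The mitosis windows lie at chr4:118437294-118437593 (minus) for Cdc20, chr7:122159185-122159484 (plus) for Plk1 and chr11:99024140-99024439 (minus) for Top2a. Each is written 5′ to 3′ on the strand of its gene, and capitals mark E2F, CHR or CCAAT matches on either strand. No match of 1 kind overlaps a match of another kind in these 6 windows.
Mcm5: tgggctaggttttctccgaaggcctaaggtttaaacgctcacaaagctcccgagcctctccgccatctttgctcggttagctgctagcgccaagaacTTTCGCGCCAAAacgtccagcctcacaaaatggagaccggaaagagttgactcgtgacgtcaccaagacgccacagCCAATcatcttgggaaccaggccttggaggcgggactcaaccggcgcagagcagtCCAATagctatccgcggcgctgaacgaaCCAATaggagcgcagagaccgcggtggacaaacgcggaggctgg
Cdc6: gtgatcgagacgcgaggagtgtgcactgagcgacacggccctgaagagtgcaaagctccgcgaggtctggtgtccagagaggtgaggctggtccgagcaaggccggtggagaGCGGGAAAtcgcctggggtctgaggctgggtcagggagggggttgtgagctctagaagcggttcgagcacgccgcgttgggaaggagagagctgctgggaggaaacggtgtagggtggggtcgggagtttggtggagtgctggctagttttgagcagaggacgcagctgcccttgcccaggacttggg
Mcm6: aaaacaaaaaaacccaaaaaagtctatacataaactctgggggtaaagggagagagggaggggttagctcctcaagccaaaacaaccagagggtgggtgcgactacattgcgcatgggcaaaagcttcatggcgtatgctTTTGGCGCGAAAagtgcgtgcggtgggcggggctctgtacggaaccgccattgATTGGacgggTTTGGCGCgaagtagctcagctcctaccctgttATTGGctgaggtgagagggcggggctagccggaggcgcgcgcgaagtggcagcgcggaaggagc
Cdc20: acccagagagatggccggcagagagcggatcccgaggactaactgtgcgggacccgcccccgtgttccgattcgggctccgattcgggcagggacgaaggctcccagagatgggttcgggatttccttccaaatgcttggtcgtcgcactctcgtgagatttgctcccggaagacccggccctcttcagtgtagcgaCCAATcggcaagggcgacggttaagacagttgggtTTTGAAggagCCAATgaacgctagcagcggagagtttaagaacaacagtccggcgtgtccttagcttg
Plk1: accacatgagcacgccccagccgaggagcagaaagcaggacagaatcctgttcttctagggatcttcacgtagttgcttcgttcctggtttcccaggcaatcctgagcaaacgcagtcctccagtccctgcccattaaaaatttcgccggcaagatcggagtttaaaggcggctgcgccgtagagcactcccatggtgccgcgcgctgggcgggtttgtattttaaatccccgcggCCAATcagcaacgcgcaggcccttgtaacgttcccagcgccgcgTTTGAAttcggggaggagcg
Top2a: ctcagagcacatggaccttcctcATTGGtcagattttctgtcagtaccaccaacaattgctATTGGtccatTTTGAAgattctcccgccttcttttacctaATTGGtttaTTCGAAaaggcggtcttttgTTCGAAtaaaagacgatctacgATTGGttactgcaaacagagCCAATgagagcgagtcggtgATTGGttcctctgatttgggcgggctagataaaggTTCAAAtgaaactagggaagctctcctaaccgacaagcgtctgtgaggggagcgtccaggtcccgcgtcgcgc
The 3 replication windows hold capitals of E2F elements and no CHR element. The 3 mitosis windows hold CHR and CCAAT and no E2F element. A match is a description of letters and not a tested site.

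Across the 15 groups, the members were lowest in the late chemical intermediates and highest in iPSCs. The mean log2(FPKM + 1) of the 16 replication members was 6.08 to 6.25 in the iPSC libraries of both arms, against 4.71 to 5.00 in day 0 MEFs of both arms. For the 22 mitosis members it was 5.68 to 5.95 in iPSCs, against 4.86 to 5.25 in day 0 MEFs. At CF1 day 12 the replication mean was 2.29 and 2.30, and the mitosis mean 0.86 and 0.89. In bulk RNA, fewer dividing cells and less RNA of these genes per cell cannot be told apart. Values of the 3 tables stand side by side here as levels, and tests were made within a table.

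**Figure D1:**
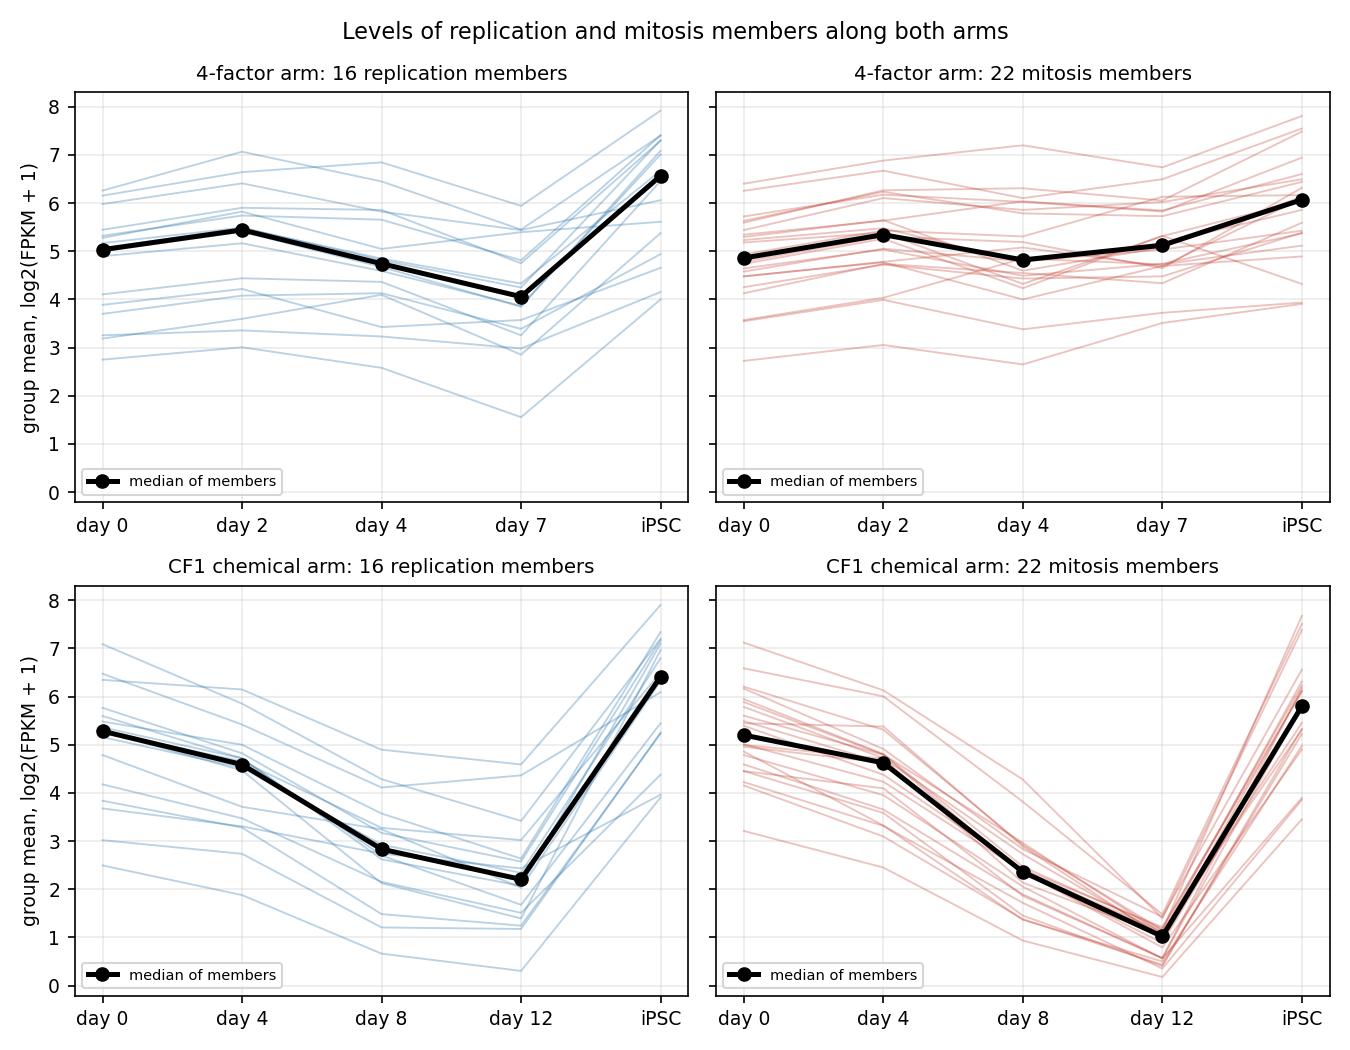
Group mean log2(FPKM + 1) of each replication member (left) and each mitosis member (right) in the 4-factor arm (top) and the CF1 arm (bottom), over the days and the iPSCs, with a thin line per member and the median in black. The CF1 panels dip at day 8 and day 12 and end high in iPSCs, whereas in the 4-factor panels the median replication line dips at day 7 and the median mitosis line does not, with single members such as Tk1 and Aurka going against their list.

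In the 4-factor arm, 0 members passed the test at day 2 against day 0 MEFs, although most changes were small and positive. Changes are differences of mean log2(FPKM + 1), tested with limma across all genes that passed a filter on low values, which all 45 members passed in this table. A gene was called when its Benjamini-Hochberg adjusted p was under 0.05 and its change at least 2-fold. By that rule 0 of 45 members rose and 0 fell at day 2, where limma called 1.95% of all genes higher and 1.73% lower. The changes of 43 of 45 members were positive, as were 55% of those of all genes, with a median of 0.41 for replication members, 0.46 for mitosis members and 0.40 for regulators, against 0.04 for all genes tested. With limma's adjusted p alone, 16 of 45 members were higher and 0 lower (8 replication, 7 mitosis and 1 regulator), where 7.74% of all genes were higher, and at an unadjusted p under 0.05 it was 32 of 45, where 16.4% of all genes were higher. Rrm2, the small subunit of ribonucleotide reductase that makes the building blocks of DNA, had 133 and 133 FPKM at day 2, against 78.6 and 72.7 FPKM at day 0. Ccnb1, cyclin B1, the partner of Cdk1 at entry to mitosis, had 73.2 and 78.7 FPKM at day 2, against 48.2 and 46.3 FPKM at day 0. The day 2 libraries of both genes lay above the day 0 libraries without overlap, as did those of 40.3% of all genes tested.

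At 4-factor day 4 the mean of the members was near that of day 0, while single regulators moved. Nusap1, a microtubule-binding protein of the spindle, rose, and E2f8 and Foxm1 fell, which makes 1 of 45 members higher and 2 lower, where limma called 9.44% of all genes higher and 7.41% lower. Nusap1 had 29.2 and 26.4 FPKM at day 4, against 10.3 and 11.5 FPKM at day 0 (log2 change 1.27 ± 0.14 SE, limma adjusted p = 0.000178). E2f8, an atypical E2F that represses replication genes late in S phase, had 2.78 and 1.48 FPKM at day 4, against 7.22 and 6.65 FPKM at day 0 (log2 change -1.37 ± 0.21, limma adjusted p = 0.000963). Foxm1, the forkhead activator of mitosis genes, had 10.2 and 7.94 FPKM at day 4, against 26.3 and 20.8 FPKM at day 0 (log2 change -1.28 ± 0.15, limma adjusted p = 0.000255). None of these 3 genes had overlapping libraries. Both day 4 libraries lay above both day 0 libraries for 39.8% of all genes tested and below them for 33.7%. Median changes were -0.09 for replication members, 0.20 for mitosis members and -0.47 for regulators, against 0.04 for all genes. With libraries rescaled to TPM the mitosis median was -0.04, against -0.13 for all genes, and 1 member was higher and 4 lower. Without day 4 replicate 1, 6 members were called, 1 higher and 5 lower.

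Between day 2 and day 4 of the 4-factor arm, 5 of 45 members fell and 0 rose, where limma called 6.15% of all genes higher and 4.76% lower. They were E2f8 (log2 change -2.06 ± 0.21 SE, limma adjusted p = 0.000207), Foxm1 (-1.49 ± 0.15, adjusted p = 0.000207), Plk1, Mki67 and Kif20a. Plk1, the Polo kinase of mitosis, had 31.6 and 14.9 FPKM at day 4, against 51.5 and 46.4 FPKM at day 2 (log2 change -1.13 ± 0.28, limma adjusted p = 0.014). Mki67, the Ki-67 protein that coats mitotic chromosomes, had 23.7 and 11.9 FPKM at day 4, against 37 and 37.6 FPKM at day 2 (log2 change -1.10 ± 0.28, limma adjusted p = 0.0152). Day 4 replicate 2 was the lower library for both genes. Without it the change of Plk1 was -0.61 (limma adjusted p = 0.023) and that of Mki67 -0.63 (adjusted p = 0.0507), and 3 members were called. Without day 2 replicate 1 or day 2 replicate 2, 3 members were also called, with adjusted p values of 0.0821 and 0.054 for Plk1 and 0.0707 and 0.0727 for Mki67.

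**Figure D2:**
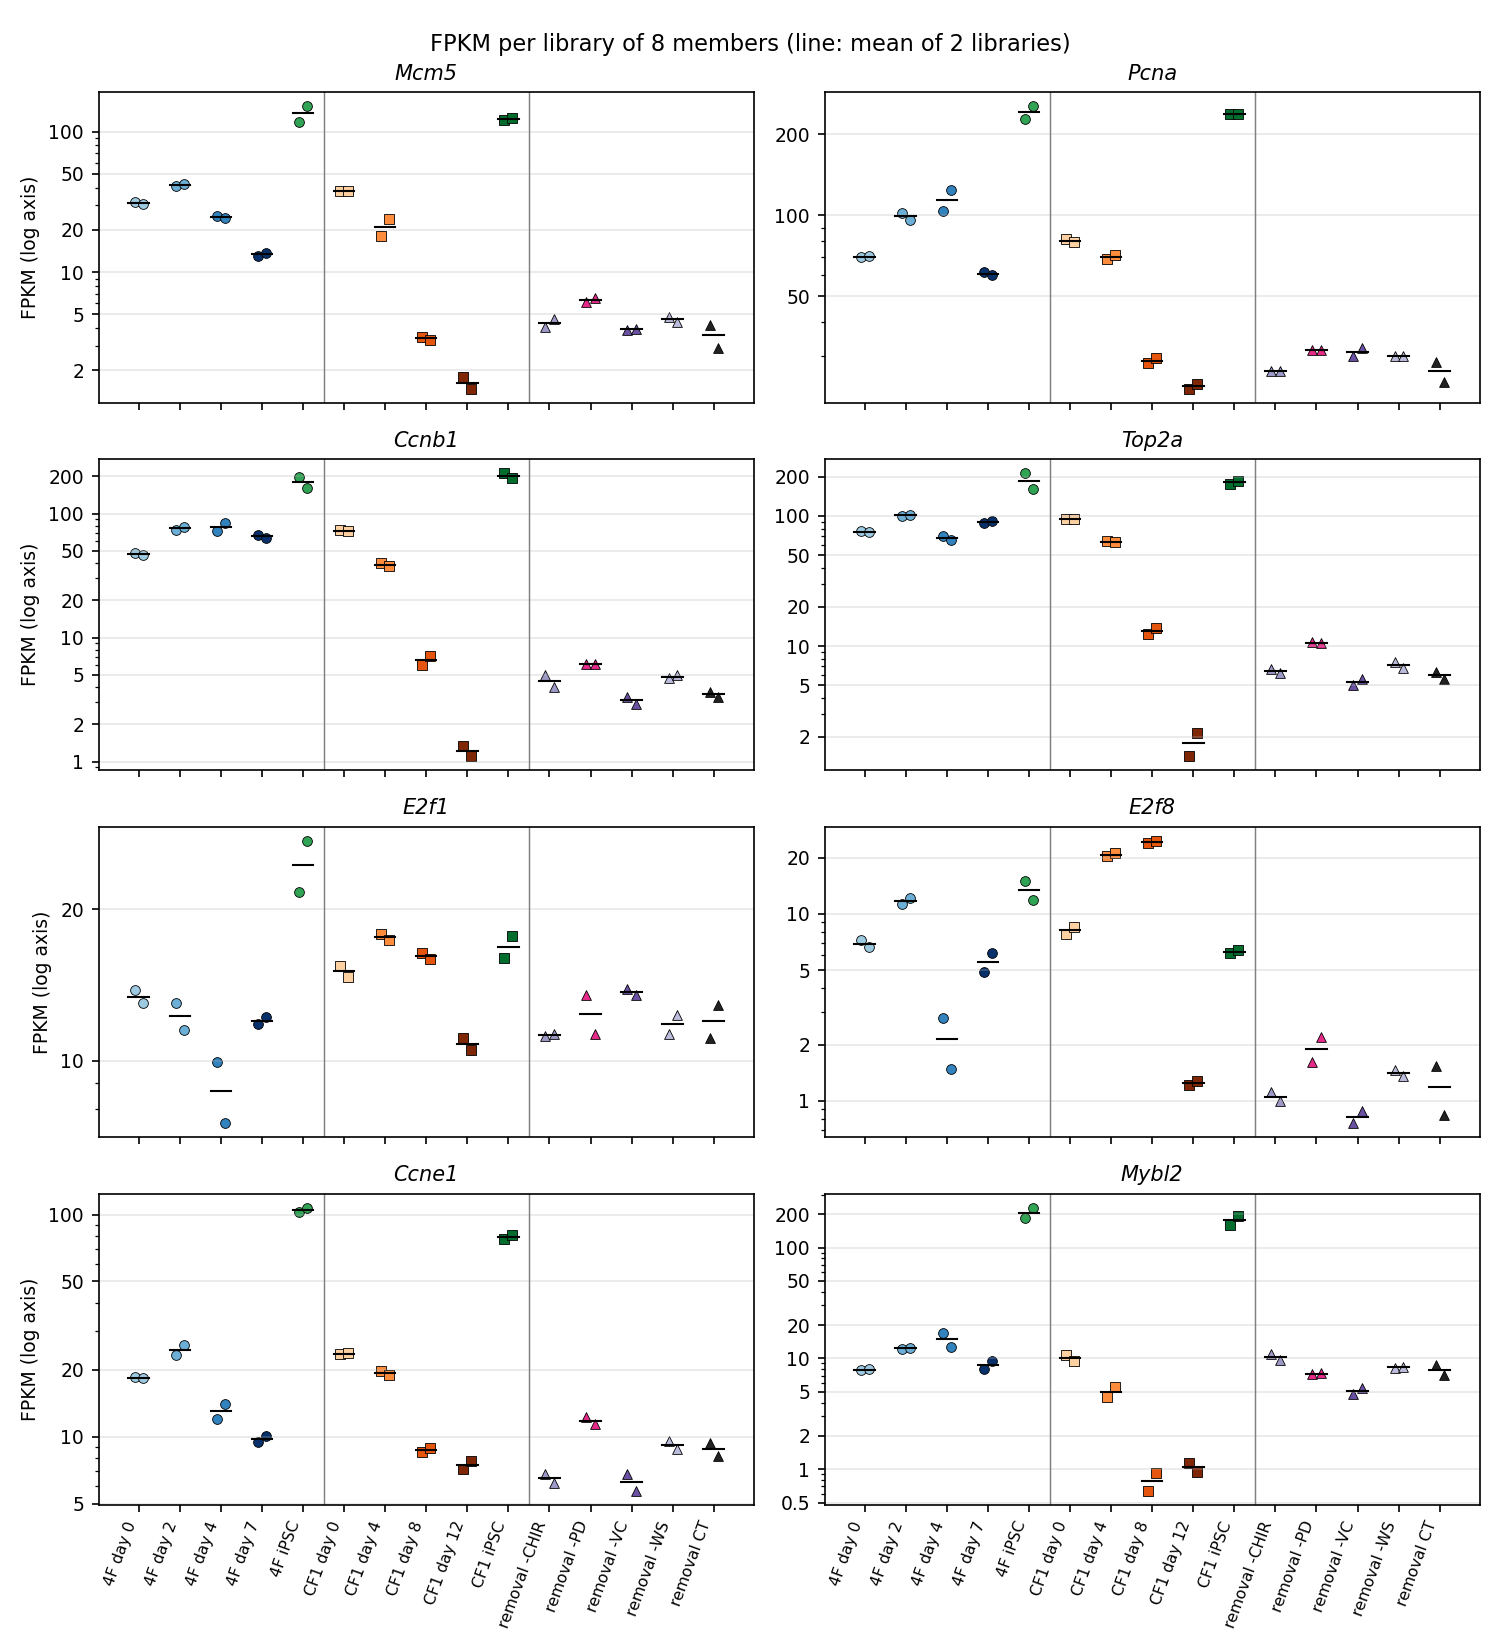
FPKM on a log axis of 8 members in each of the 30 libraries, over the 15 groups, with a point per library. Top2a and Ccnb1 reach their lowest points at CF1 day 12, E2f8 peaks at CF1 day 8, and Mybl2 and Ccne1 are highest in the iPSCs of both arms.

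At 4-factor day 7 few members passed the test. Mcm2, Mcm5 and Cdc6 fell, Ccnb2 and Nusap1 rose, and 0 of 7 regulators passed the test. Against day 0 this made 2 of 45 members higher and 3 lower, where limma called 6.21% of all genes higher and 3.91% lower. With libraries rescaled to TPM, 2 members were higher and 7 lower, and the median change of all genes was then -0.13. The median change was -0.62 for replication members, with 15 of 16 negative, and 0.22 for mitosis members, with 19 of 22 positive, against 0.02 for all genes. By limma's adjusted p alone, 10 of 16 replication members were lower and 0 higher, and 6 of 22 mitosis members were higher and 0 lower, where 16.2% of all genes were lower and 18.4% higher. The difference between the lists was not tested. Marker sums differed between the same groups, with fibroblast markers at 9490 to 9495 FPKM at day 7, against 5847 to 6313 FPKM at day 0. Within that list Thy1 (mean 286 to 161 FPKM), Pdgfrb (92.5 to 33.9) and Fn1 (844 to 385) fell, and the others rose. The 10 epithelial markers summed to 87.5 to 91.3 FPKM at day 7, against 6.98 to 8.68 FPKM at day 0, and the naive pluripotency markers to 120 to 125 FPKM, against 16 to 17.3 FPKM. The part of these cells in the changes was not tested. Cdc6, the loader of the helicase onto origins, had 1.89 and 1.99 FPKM at day 7, against 5.66 and 5.8 FPKM at day 0 (log2 change -1.20 ± 0.13 SE, limma adjusted p = 0.000197). Mcm5, a subunit of the helicase ring, had 13.1 and 13.7 FPKM at day 7, against 31.6 and 30.4 FPKM at day 0 (log2 change -1.15 ± 0.13, limma adjusted p = 0.000274). In both genes the 2 day 7 libraries lay below both day 0 libraries, as they did for 37.4% of all genes tested. Ccnb2, cyclin B2, had 72.1 and 66.1 FPKM at day 7, against 29.2 and 30 FPKM at day 0 (log2 change 1.19 ± 0.10, limma adjusted p = 6.48e-05). Nusap1 had 26.1 and 25 FPKM at day 7, against 10.3 and 11.5 FPKM at day 0 (log2 change 1.16 ± 0.14, limma adjusted p = 0.000421).

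From day 4 to day 7 of the 4-factor arm, Mcm6, Cdc6, Cdt1 and Gins1 fell, and Mki67, Kif20a and E2f8 rose. That is 3 of 45 members higher and 4 lower, where limma called 2.98% of all genes higher and 4.63% lower. Median changes were -0.78 for replication members and 0.21 for mitosis members. Gins1, a subunit of the GINS complex, had 5.88 and 6.57 FPKM at day 7, against 15.4 and 16.8 FPKM at day 4 (log2 change -1.24 ± 0.12 SE, limma adjusted p = 0.000239). Cdt1, the partner of Cdc6 in loading the helicase, had 7.25 and 9.84 FPKM at day 7, against 21 and 18.1 FPKM at day 4 (log2 change -1.12 ± 0.15, limma adjusted p = 0.00118). Mki67 had 38.1 and 39.9 FPKM at day 7, against 23.7 and 11.9 FPKM at day 4 (log2 change 1.16 ± 0.28, limma adjusted p = 0.0152). The day 7 libraries were below both day 4 libraries for the first 2 genes and above them for Mki67. They were below for 31.9% of all genes tested and above for 32.2%. The day 4 pair set the number of calls, since 11 members were called without day 4 replicate 1 (5 higher and 6 lower) and 4 without day 4 replicate 2 (0 higher and 4 lower). Without day 4 replicate 2 the change of Mki67 was 0.69 (limma adjusted p = 0.0452) and that of E2f8 0.78 (adjusted p = 0.0185). Without day 7 replicate 1 that of Cdt1 was -0.92 and the adjusted p of Mki67 was 0.0696. Without day 7 replicate 2 the adjusted p of Mki67 was 0.0849 and that of E2f8 0.055.

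In 4-factor iPSCs the members were higher than in day 0 MEFs, above all the replication genes. Of the replication members 12 of 16 rose, of the mitosis members 13 of 22, and of the regulators 3 of 7 (Mybl2, Ccne1 and E2f2), and 0 of 45 fell. Limma called 22.2% of all genes higher and 19.4% lower in this comparison. Median changes were 1.68 for replication members, 1.14 for mitosis members and 0.86 for regulators, against 0.14 for all genes. Cdt1 had 80.3 and 93.6 FPKM in iPSCs, against 16.2 and 16.2 FPKM at day 0 (log2 change 2.35 ± 0.15 SE, limma adjusted p = 1.22e-06). Mcm5 had 118 and 152 FPKM in iPSCs, against 31.6 and 30.4 FPKM at day 0 (log2 change 2.08 ± 0.13, limma adjusted p = 9.65e-07). Pcna, the sliding clamp of DNA polymerases, had 228 and 255 FPKM in iPSCs, against 69.7 and 70.6 FPKM at day 0 (log2 change 1.77 ± 0.13, limma adjusted p = 2.09e-06). In each of these 3 genes both iPSC libraries were above both day 0 libraries, as they were for 46.6% of all genes tested. Cdc6 (log2 change 1.25 ± 0.13, limma adjusted p = 2.28e-05) and Rrm2 (1.14 ± 0.11, adjusted p = 1.3e-05) rose less, and Rrm2 was below 2-fold with TPM (0.94) and with a median of ratios scaling (0.95). Rrm1, Tyms, Tk1 and Gins2 did not pass.

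Among mitosis members of 4-factor iPSCs, Ccnb1 changed most, with 197 and 160 FPKM, against 48.2 and 46.3 FPKM at day 0 (log2 change 1.89 ± 0.14 SE, limma adjusted p = 2.26e-06). Top2a, the topoisomerase that untangles chromosomes, had 212 and 161 FPKM in iPSCs, against 76.1 and 74.7 FPKM at day 0 (log2 change 1.28 ± 0.14, limma adjusted p = 3.68e-05). Cdc20, an activator of the anaphase-promoting complex, had 108 and 136 FPKM in iPSCs, against 50.3 and 53.4 FPKM at day 0 (log2 change 1.21 ± 0.13, limma adjusted p = 3.45e-05). Mki67 did not follow them, with 22.8 and 15.1 FPKM in iPSCs, against 26.8 and 24.5 FPKM at day 0. It was the mitosis member with a negative change, of -0.44, which did not pass the test. Plk1 had 64.2 and 73.8 FPKM in iPSCs, against 39.5 and 37.2 FPKM at day 0, above day 0 in both libraries but below the 2-fold limit. Both iPSC libraries lay above day 0 for 46.6% of all genes tested.

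The regulators of 4-factor iPSCs split. Mybl2, the B-Myb protein that turns DREAM targets on, had 184 and 227 FPKM in iPSCs, against 7.82 and 7.96 FPKM at day 0 (log2 change 4.53 ± 0.16 SE, limma adjusted p = 3.17e-08), the largest change of any member in this comparison. Ccne1, cyclin E1, the partner of Cdk2 at entry to S phase, had 103 and 107 FPKM in iPSCs, against 18.5 and 18.3 FPKM at day 0 (log2 change 2.46 ± 0.12, limma adjusted p = 1.53e-07). Its relative Ccne2 had 6.85 and 4.89 FPKM in iPSCs, against 7.57 and 7.6 FPKM at day 0, and did not pass. Of the E2F factors, E2f2, an activator, had 4.05 and 4.84 FPKM in iPSCs, against 0.637 and 0.498 FPKM at day 0 (log2 change 1.79 ± 0.17, limma adjusted p = 1.64e-05). E2f1, also an activator, had 21.7 and 27.4 FPKM in iPSCs, against 13.8 and 13 FPKM at day 0, and did not reach 2-fold. Foxm1 had 17.3 and 17.5 FPKM in iPSCs, against 26.3 and 20.8 FPKM at day 0, lower in both libraries but by less than 2-fold. Both iPSC libraries lay below day 0 for 38.5% of all genes tested.

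From day 7 to iPSCs of the 4-factor arm, 14 of 16 replication members rose but 8 of 22 mitosis members, with 4 of 7 regulators. Mki67 fell, so that 26 members were higher and 1 lower, where limma called 23.9% of all genes higher and 21.8% lower. Median changes were 2.39 for replication members, 0.72 for mitosis members and 1.14 for regulators, against 0.09 for all genes. With a median of ratios scaling 19 members were higher and 1 lower, and the median change of all genes was -0.08. The largest changes were those of Mybl2 (log2 change 4.39 ± 0.16 SE, limma adjusted p = 3.66e-08), Ccne1 (3.30 ± 0.12, adjusted p = 2.89e-08) and Mcm5 (3.23 ± 0.13, adjusted p = 6.09e-08). Calls near the 2-fold limit rested on single libraries. Without iPSC replicate 1, Top2a (log2 change 1.04) was at 0.84 and E2f8 (1.14) at 0.98. Without iPSC replicate 2, Cdc20 (1.11) was at 0.95, Plk1 (1.06) at 0.96 and Mki67 (-1.03) at -0.75. Without day 7 replicate 1, Plk1 was at 0.89 and E2f8 at 0.99, and without day 7 replicate 2 Mki67 was at -1.0 (limma adjusted p = 0.0451).

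In the CF1 arm most members were lower at day 4 than in day 0 MEFs. Of 45 members 11 fell, namely 3 replication members (Cdt1, Rrm1 and Rrm2), 7 mitosis members and Foxm1, and E2f2 and E2f8 rose, where limma called 8.08% of all genes lower and 11.7% higher. All 16 replication and all 22 mitosis members had negative changes, with medians of -0.64 and -0.89, against 0.04 for all genes. With TPM, 2 members were higher and 21 lower, while the median change of all genes moved from 0.04 to -0.04. Rrm2 had 56.4 and 57.1 FPKM at day 4, against 133 and 137 FPKM at day 0 (log2 change -1.24 ± 0.05 SE, limma adjusted p = 7.54e-08). Kif23, a kinesin of cytokinesis, had 8.6 and 9.43 FPKM at day 4, against 28 and 28.1 FPKM at day 0 (log2 change -1.54 ± 0.09, limma adjusted p = 7.69e-07). Cdc20 had 28.2 and 29.9 FPKM at day 4, against 71.7 and 70 FPKM at day 0 (log2 change -1.26 ± 0.11, limma adjusted p = 1.28e-05). E2f8 ran opposite to them, with 20.3 and 21.1 FPKM at day 4, against 7.78 and 8.52 FPKM at day 0 (log2 change 1.25 ± 0.07, limma adjusted p = 8.35e-07). E2f2 had 2.03 and 2.46 FPKM at day 4, against 0.424 and 0.325 FPKM at day 0 (log2 change 1.24 ± 0.12, limma adjusted p = 1.89e-05). Foxm1 had 12.8 and 13.5 FPKM at day 4, against 31.4 and 33.5 FPKM at day 0 (log2 change -1.24 ± 0.11, limma adjusted p = 1.16e-05).

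By CF1 day 8 nearly the whole set had fallen. Against day 0, 15 of 16 replication members fell (Gins2 did not pass), as did 22 of 22 mitosis members and 4 of 7 regulators (Ccne1, Ccne2, Foxm1 and Mybl2), and E2f8 rose. That is 41 of 45 members lower and 1 higher, where limma called 12.4% of all genes lower and 11.9% higher. Median changes were -2.13 for replication members, -2.85 for mitosis members and -1.35 for regulators, against 0.00 for all genes. Ccna2, cyclin A2 of S phase and G2, had 4.61 and 4.48 FPKM at day 8, against 61.7 and 59.7 FPKM at day 0 (log2 change -3.48 ± 0.06 SE, limma adjusted p = 1.03e-09). Mcm5 had 3.46 and 3.28 FPKM at day 8, against 38.1 and 38 FPKM at day 0 (log2 change -3.16 ± 0.12, limma adjusted p = 4.93e-08). Kif23 had 1.69 and 1.48 FPKM at day 8, against 28 and 28.1 FPKM at day 0 (log2 change -3.49 ± 0.09, limma adjusted p = 6e-09). Cdc20 had 5.5 and 6.77 FPKM at day 8, against 71.7 and 70 FPKM at day 0 (log2 change -3.34 ± 0.11, limma adjusted p = 2.62e-08). In each of these genes both day 8 libraries lay below both day 0 libraries, as they did for 43.2% of all genes tested. Plk1 had 4.26 and 3.79 FPKM at day 8, against 48.7 and 46.4 FPKM at day 0 (log2 change -3.27 ± 0.14, limma adjusted p = 9.36e-08). Pcna kept the highest replication level, with 28.2 and 29.3 FPKM at day 8, against 81.5 and 79.2 FPKM at day 0 (log2 change -1.45 ± 0.05, limma adjusted p = 3.69e-08). E2f8 reached 23.9 and 24.6 FPKM at day 8, against 7.78 and 8.52 FPKM at day 0 (log2 change 1.47 ± 0.07, limma adjusted p = 2.59e-07), its highest level in any group. E2f1 did not pass the test, at 16.4 and 15.9 FPKM at day 8, against 15.4 and 14.7 FPKM at day 0. The step from day 4 to day 8 carried most of this change, with 14 of 16 replication, 22 of 22 mitosis and 4 of 7 regulator members lower and 0 of 45 higher, where limma called 7.47% of all genes lower and 5.61% higher. Its largest changes were those of Ccnb2 (log2 change -2.57 ± 0.14 SE, limma adjusted p = 1.02e-06), Cenpa, the histone variant of centromeres (-2.49 ± 0.12, adjusted p = 5.38e-07), and Plk1 (-2.46 ± 0.14, adjusted p = 1.28e-06).

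At CF1 day 12 most members of both lists were lower still than at day 8, and the mitosis members by more on the log2 scale. From day 8 to day 12, 19 of 22 mitosis members fell, against 2 of 16 replication members (Cdt1 and Tk1) and 1 of 7 regulators (E2f8), and 0 of 45 rose, where limma called 7.69% of all genes lower and 3.52% higher. By limma's adjusted p alone, 22 of 22 mitosis and 13 of 16 replication members were lower, where 29.2% of all genes were lower. The difference between the lists was not tested. Median changes in this step were -1.34 for mitosis members, -0.57 for replication members and -0.54 for regulators. E2f8 had 1.22 and 1.28 FPKM at day 12, against 23.9 and 24.6 FPKM at day 8 (log2 change -3.49 ± 0.07 SE, limma adjusted p = 7.44e-09). Ube2c, an enzyme that builds ubiquitin chains for the anaphase-promoting complex, had 1.2 and 2.09 FPKM at day 12, against 19.4 and 17.4 FPKM at day 8 (log2 change -2.89 ± 0.16, limma adjusted p = 1.25e-06). Top2a had 1.43 and 2.15 FPKM at day 12, against 12.4 and 13.7 FPKM at day 8 (log2 change -2.34 ± 0.11, limma adjusted p = 4.27e-07). Both day 12 libraries lay below both day 8 libraries in these 3 genes, as they did for 43% of all genes tested. By contrast Rrm1, the large subunit of ribonucleotide reductase, had 19.6 and 19.6 FPKM at day 12, against 15.6 and 16.9 FPKM at day 8. Mybl2 had 1.15 and 0.944 FPKM at day 12, against 0.643 and 0.927 FPKM at day 8, near the limit of 1 FPKM in both groups.

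Set against day 0, 16 of 16 replication, 22 of 22 mitosis and 5 of 7 regulator members were lower at CF1 day 12, and 0 of 45 higher, where limma called 15.5% of all genes lower and 10.1% higher. E2f1 and E2f2 did not pass. The median change was -2.71 for replication members, -4.29 for mitosis members and -2.02 for regulators, against -0.06 for all genes. Ccnb1 had 1.33 and 1.11 FPKM at day 12, against 73.8 and 71.8 FPKM at day 0 (log2 change -5.06 ± 0.09 SE, limma adjusted p = 7.5e-10). Ube2c, at 1.2 and 2.09 FPKM against 139 and 138 FPKM at day 0, had the largest change of any member (log2 change -5.74 ± 0.16, limma adjusted p = 8.56e-09). Top2a had a change of -5.12 ± 0.11 (limma adjusted p = 2.27e-09). At these low levels the added 1 FPKM shrinks a fold change. The summed FPKM of the 10 fibroblast markers was 14893 to 15278 at CF1 day 12, against 3744 to 3805 at day 0. The collagens Col1a1, Col1a2 and Col3a1 made up most of that sum. Thy1 (mean 152 to 90 FPKM), Pdgfrb (91.6 to 27.7) and Fn1 (677 to 506) fell, and the other markers rose. The sum is thus no measure of fibroblast content, and its part in these changes was not tested. The replication genes kept more of their level, as in Pcna with 22.6 and 23.6 FPKM at day 12, against 81.5 and 79.2 FPKM at day 0 (log2 change -1.76 ± 0.05, limma adjusted p = 1.07e-08). Mcm5 was the replication member that fell furthest, with 1.79 and 1.48 FPKM at day 12, against 38.1 and 38 FPKM at day 0 (log2 change -3.89 ± 0.12, limma adjusted p = 1.25e-08). E2f1 was at 11.1 and 10.5 FPKM at day 12, against 15.4 and 14.7 FPKM at day 0.

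**Figure D3:**
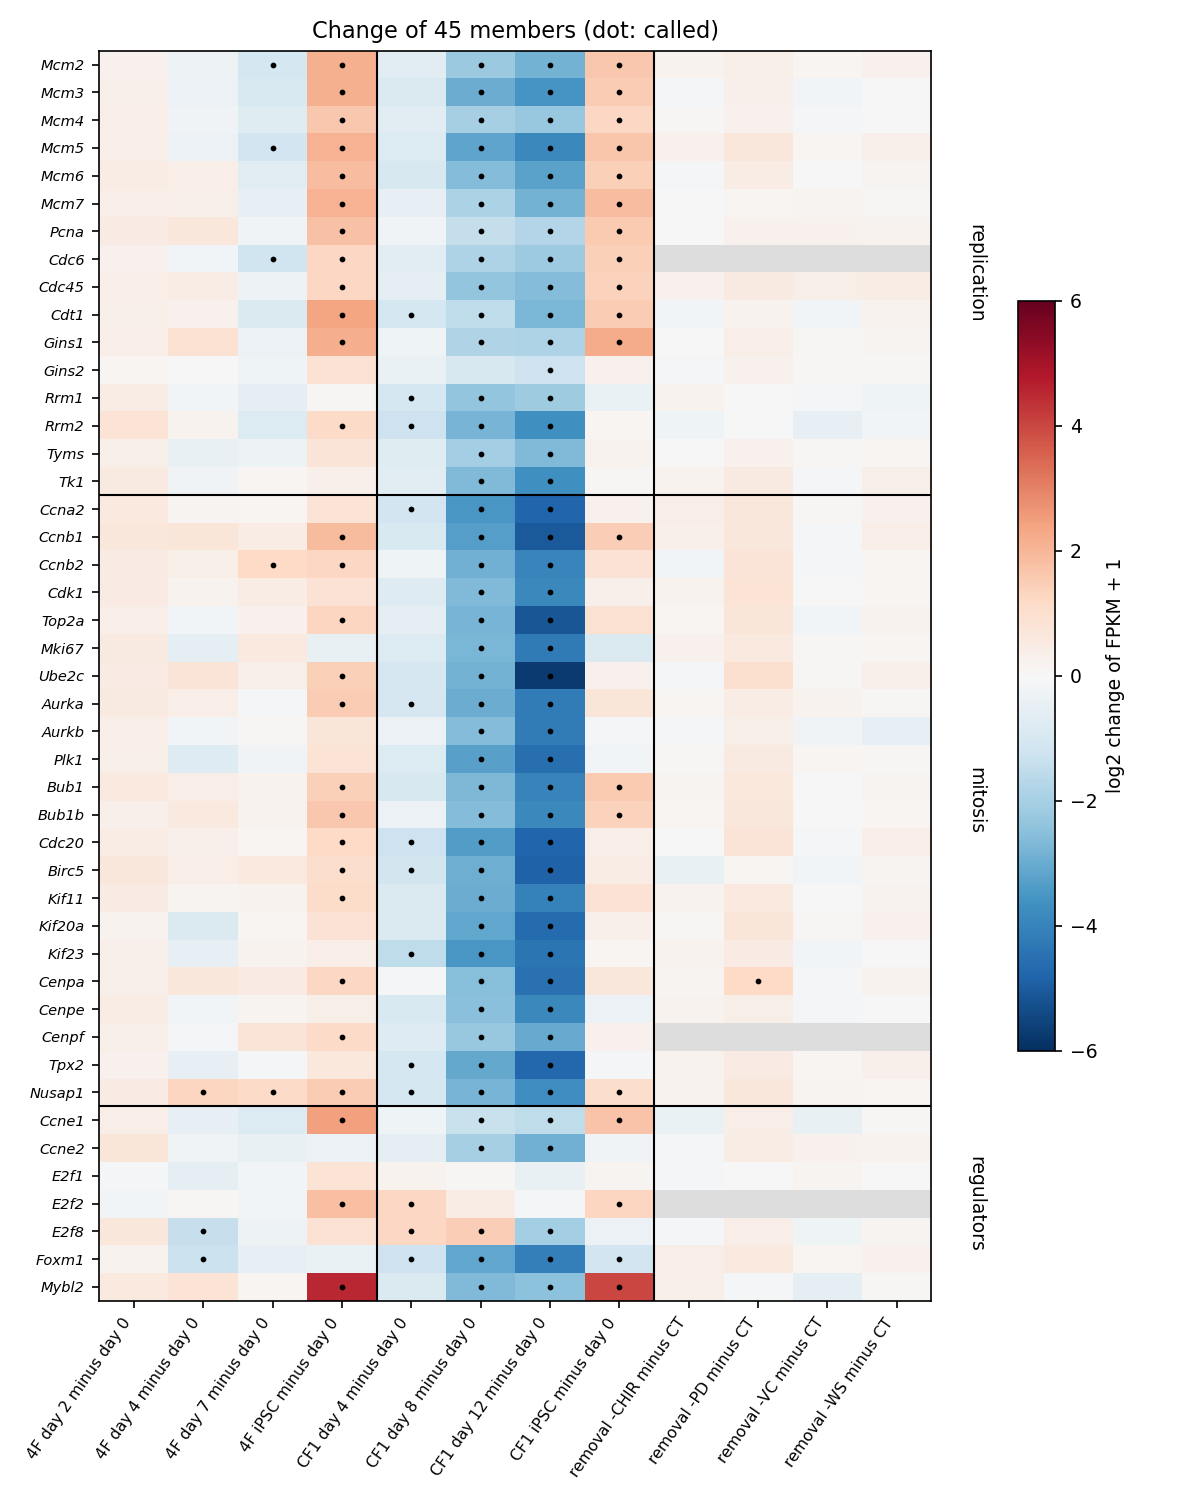
Log2 change of FPKM + 1 of each of the 45 members (down the page, by role) in 12 comparisons (across), with a dot where limma called the gene and grey where it was not tested. The CF1 day 8 and day 12 columns are lower for nearly all members, and the iPSC columns are higher for most replication members.

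CF1 iPSCs had more RNA of replication genes than day 0 MEFs, and 4 of 22 mitosis genes passed. Of the replication members 11 of 16 rose, of the mitosis members Ccnb1, Bub1, Bub1b and Nusap1, and of the regulators Mybl2, Ccne1 and E2f2. Foxm1 fell, so that 18 members were higher and 1 lower, where limma called 21.1% of all genes higher and 19.4% lower. Medians were 1.41 for replication members, 0.35 for mitosis members and 0.15 for regulators, against 0.05 for all genes. With TPM the regulator median was -0.11, against -0.15 for all genes. Mybl2 had 159 and 194 FPKM in iPSCs, against 10.7 and 9.51 FPKM at day 0 (log2 change 3.99 ± 0.13 SE, limma adjusted p = 1.18e-08). Gins1 had 35.6 and 38.7 FPKM in iPSCs, against 7.07 and 7.15 FPKM at day 0 (log2 change 2.23 ± 0.15, limma adjusted p = 1.16e-06). Mcm7, a subunit of the helicase ring, had 153 and 170 FPKM in iPSCs, against 43.8 and 43.6 FPKM at day 0 (log2 change 1.86 ± 0.09, limma adjusted p = 1.47e-07). Bub1 and Bub1b are kinases of the spindle checkpoint, and Bub1 had 74.7 and 67.9 FPKM in iPSCs, against 22.9 and 23.3 FPKM at day 0. Ccne1 had 77.3 and 81.3 FPKM in iPSCs, against 23.5 and 23.8 FPKM at day 0 (log2 change 1.70 ± 0.06, limma adjusted p = 2.12e-08). Foxm1 had 14.4 and 14.1 FPKM in iPSCs, against 31.4 and 33.5 FPKM at day 0 (log2 change -1.13 ± 0.11, limma adjusted p = 1.04e-05). Mki67 had 12.9 and 14.9 FPKM in iPSCs, against 25.6 and 27.6 FPKM at day 0, lower in both libraries, as in the 4-factor arm, but by less than 2-fold. Both CF1 iPSC libraries lay below day 0 for 41.9% of all genes tested. Set against day 12 the changes of 45 of 45 members were positive, as were 54% of those of all genes. Called higher were 16 of 16 replication, 22 of 22 mitosis and 6 of 7 regulator members, and 0 of 45 were lower. Limma called 28.4% of all genes higher and 20.8% lower. E2f1 was short of 2-fold there. By limma's adjusted p alone 45 of 45 members passed, as did 83.2% of all genes. The largest of these changes were those of Ccnb1 (log2 change 6.52 ± 0.09 SE, limma adjusted p = 5.78e-11), Mybl2 (6.43 ± 0.13, adjusted p = 4.98e-10) and Top2a (6.04 ± 0.11, adjusted p = 2.4e-10).

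Other genes of the same pathways, 45 of replication, 55 of mitosis and 20 of the E2F, RB and DREAM network, were counted as well. These lists too were chosen with earlier results of these data known. In 4-factor iPSCs against day 0, 38 of 45 other replication genes rose and 0 fell, and 30 of 55 other mitosis genes rose and 0 fell. In CF1 iPSCs against day 0, 31 of 45 other replication genes and 16 of 55 other mitosis genes rose, with 0 lower in both lists. Limma called 22.2% of all genes higher in the 4-factor comparison and 21.1% in the CF1 comparison. At CF1 day 12 against day 0, 36 of 45 other replication genes, 55 of 55 other mitosis genes and 12 of 20 network genes fell and 0 rose. There limma called 15.5% of all genes lower and 10.1% higher. Between day 8 and day 12 of the CF1 arm, 26 of 55 other mitosis genes fell, against 3 of 45 other replication genes and 7.69% of all genes. At 4-factor day 7 against day 0, 0 of 45 other replication genes and 1 of 55 other mitosis genes (Pttg1, securin, log2 change 1.34, limma adjusted p = 0.000158) passed, with medians of -0.32 and 0.25. Of all genes, limma called 6.21% higher and 3.91% lower there. Mcm10, a replication initiation factor, had 62.2 and 60.7 FPKM in 4-factor iPSCs, against 7.11 and 6.81 FPKM at day 0, and Ccnf, cyclin F, had 57.7 and 69.5 FPKM, against 8.22 and 8.43 FPKM. Anln, anillin of the cytokinetic ring, had 0.765 and 0.661 FPKM at CF1 day 12, against 72.8 and 74.9 FPKM at CF1 day 0. Dut, the dUTPase that keeps uracil out of DNA, had a course like that of E2f8 over the days of the CF1 arm, but not in CF1 iPSCs or at 4-factor day 4. It had 67.5 and 66.1 FPKM at CF1 day 4 and 75.5 and 74.4 FPKM at CF1 day 8 but 8.5 and 4.76 FPKM at CF1 day 12, against 29.8 and 23.6 FPKM at CF1 day 0. In CF1 iPSCs Dut had 72.1 and 65 FPKM, and at 4-factor day 4 it had 56.3 and 67.8 FPKM, against 27.8 and 37.7 FPKM at 4-factor day 0. E2f7, the other atypical E2F, did not share that course, with 3.06 and 3.34 FPKM at CF1 day 4 and 0.549 and 0.5 FPKM at CF1 day 8, against 7.74 and 7.6 FPKM at CF1 day 0. Rb1, the retinoblastoma protein, had 11.9 and 10.7 FPKM at 4-factor day 2 and 20.5 and 20.5 FPKM at day 4, against 5.05 and 5.13 FPKM at day 0 (log2 changes 1.01 and 1.82, limma adjusted p = 0.0103 and 0.000135). Rbl2, the p130 pocket protein of DREAM, had 2.15 and 1.38 FPKM in 4-factor iPSCs, against 7.42 and 6.21 FPKM at day 0 (log2 change -1.51, limma adjusted p = 2.85e-05).

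The balance of the programmes differed between the groups. For each library the mean log2(FPKM + 1) of the 22 mitosis members was taken from that of the 16 replication members, with the regulators left out. This difference is a description and has no p-value, and a factor common to a whole library largely cancels in it. In the 4-factor arm it was -0.14 and -0.15 at day 0, -0.18 and -0.20 at day 2, -0.29 and -0.13 at day 4, -1.10 and -1.08 at day 7, and 0.21 and 0.41 in iPSCs. Day 7 thus stood below every other group of the series, with mitosis RNA over replication RNA. In the CF1 arm it was -0.25 and -0.25 at day 0, -0.14 and -0.08 at day 4, 0.45 and 0.51 at day 8, 1.44 and 1.40 at day 12, and 0.39 and 0.38 in iPSCs. CF1 day 12 stood at the opposite end, with replication RNA over mitosis RNA. The change from day 0 was -0.94 ± 0.02 at 4-factor day 7 and 1.67 ± 0.03 at CF1 day 12 (SD, n = 2). At CF1 day 4 it was 0.14 ± 0.04 with means over members and -0.07 ± 0.12 with medians, so its direction depends on the summary used. In the removal table, also sampled at day 12, the difference was 0.97 and 1.02 for -CHIR, 0.79 and 0.73 for -PD, 1.04 and 1.11 for -VC and 1.04 and 1.03 for -WS, against 1.11 and 1.02 for CT.

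**Figure D4:**
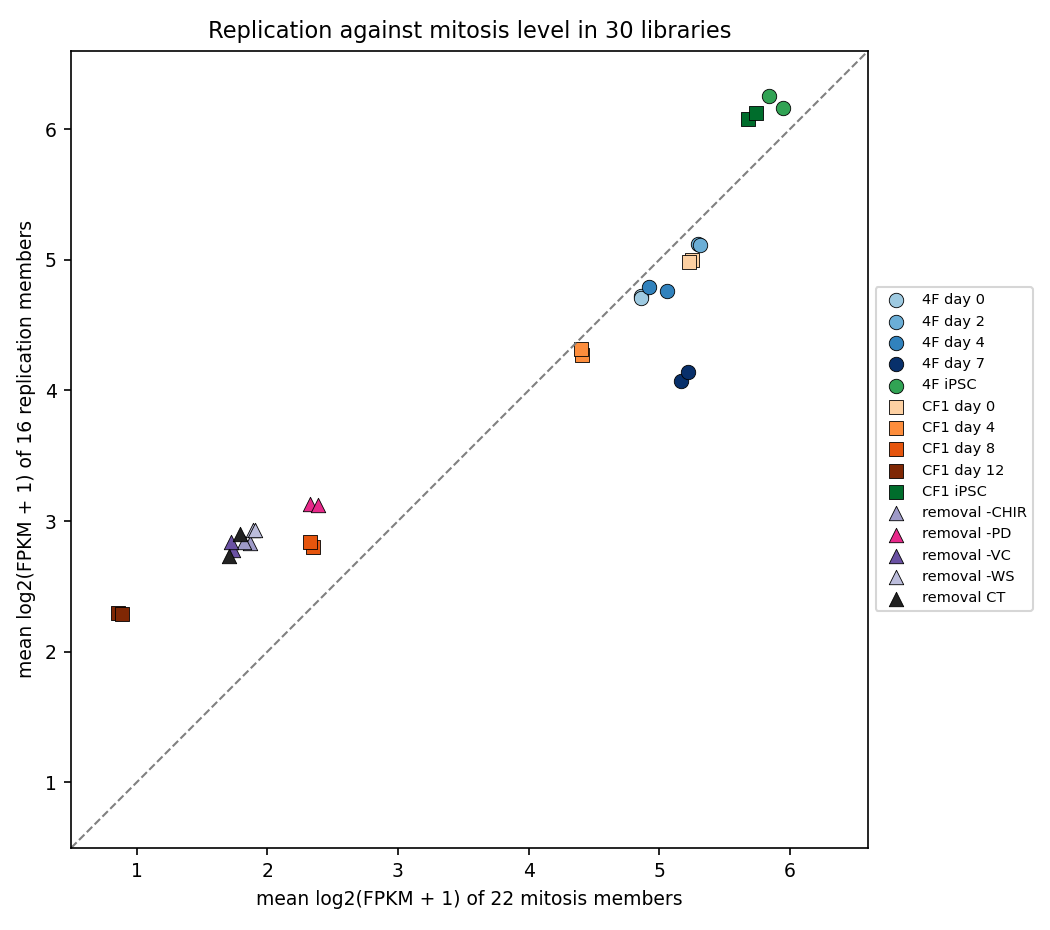
Mean log2(FPKM + 1) of the 16 replication members against that of the 22 mitosis members, with a point for each of the 30 libraries and a dashed line where the means are equal. The day 0 libraries lie near the line, the 4-factor day 7 libraries on the mitosis side, and the CF1 day 12 and removal libraries on the replication side at low levels.

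Removing 1 small molecule from day 8 to day 12 moved the members little, with the largest shift in -PD. Changes were positive for 40 of 42 members in -PD and 38 of 42 in -WS, as were 65% and 61.3% of those of all genes. The sign of a small change depends on the scaling. With TPM the median change of all genes moved from 0.08 to -0.05 in -PD and from 0.06 to -0.07 in -WS. In -CHIR and -VC 27 and 21 of 42 were positive, against 57% and 68.1% of all genes. Here 42 of 45 members passed the filter on low values (Cdc6, Cenpf and E2f2 did not), and levels were already low in CT. Against CT, 1 of 42 members rose in -PD and 0 fell, where limma called 0.79% of all genes higher and 0.482% lower. That member was Cenpa, with 8.3 and 9.11 FPKM in -PD, against 2.96 and 3.65 FPKM in CT (log2 change 1.18 ± 0.13 SE, limma adjusted p = 0.000706). With limma's adjusted p alone, 25 of 42 members were higher in -PD and 0 lower, where 10.3% of all genes were higher. They were 17 of 21 mitosis, 5 of 15 replication and 3 of 6 regulator members, with median changes of 0.66, 0.28 and 0.41, against 0.08 for all genes. Ube2c had 13.5 and 15.1 FPKM in -PD, against 7.81 and 6.09 FPKM in CT, and Cdc20 had 6.74 and 7.32 FPKM, against 3.4 and 3.9 FPKM. Top2a had 10.7 and 10.5 FPKM in -PD, against 6.34 and 5.6 FPKM in CT, and Mcm5 had 6.09 and 6.52 FPKM, against 4.2 and 2.9 FPKM. In all 4 genes both -PD libraries were above both CT libraries, as they were for 37.1% of all genes tested. E2f1 had 13.5 and 11.3 FPKM in -PD, against 11.1 and 12.9 FPKM in CT, and these overlap. The summed FPKM of the 10 fibroblast markers was 14410 to 14861 in -PD, against 21908 to 28223 in CT. Pdgfrb alone of the list was higher in -PD (mean 47.9 FPKM, against 37.5 FPKM in CT). The part of cell make-up in the changes was not tested. The number of calls was 3 without -PD replicate 1 and 2 without CT replicate 1. If PD in the labels stands for PD0325901, which the labels use in the iPSC medium, the molecule removed is the MEK inhibitor, but the labels do not state it.

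In -CHIR, 0 of 42 members passed, where limma called 0.662% of all genes higher and 0.309% lower, whereas 6 were higher and 3 lower with p unadjusted (under 0.05), as were 14.7% and 10.1% of all genes. In -VC, 0 of 42 passed, where limma called 0.918% higher and 1.41% lower, whereas 2 were higher and 3 lower with p unadjusted, as were 33.3% and 12.5% of all genes. In -WS, 0 of 42 passed, where limma called 0.444% higher and 0.467% lower, whereas 13 were higher and 3 lower with p unadjusted, as were 16.4% and 9.08% of all genes. Median changes of replication and mitosis members were 0.01 and 0.16 in -CHIR, 0.05 and -0.03 in -VC and 0.18 and 0.15 in -WS, and with TPM the replication median of -VC was -0.08. Ccnb1 had 5 and 3.96 FPKM in -CHIR, 6.15 and 6.13 FPKM in -PD, 3.33 and 2.9 FPKM in -VC and 4.74 and 4.95 FPKM in -WS, against 3.62 and 3.33 FPKM in CT. Both -CHIR, both -PD and both -WS libraries lie above CT, and the -VC libraries meet the CT range at its lower end. Both libraries lay above CT for 28.5% of all genes tested in -CHIR, 37.1% in -PD and 32.7% in -WS. Mybl2 was 4.74 and 5.4 FPKM in -VC, against 8.63 and 7.15 FPKM in CT, lower in both libraries without a call, as were 19.2% of all genes tested, called or not. Without CT replicate 2, the library with the lower mitochondrial share, 1 member was called in -PD, as with it.

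**Figure D5:**
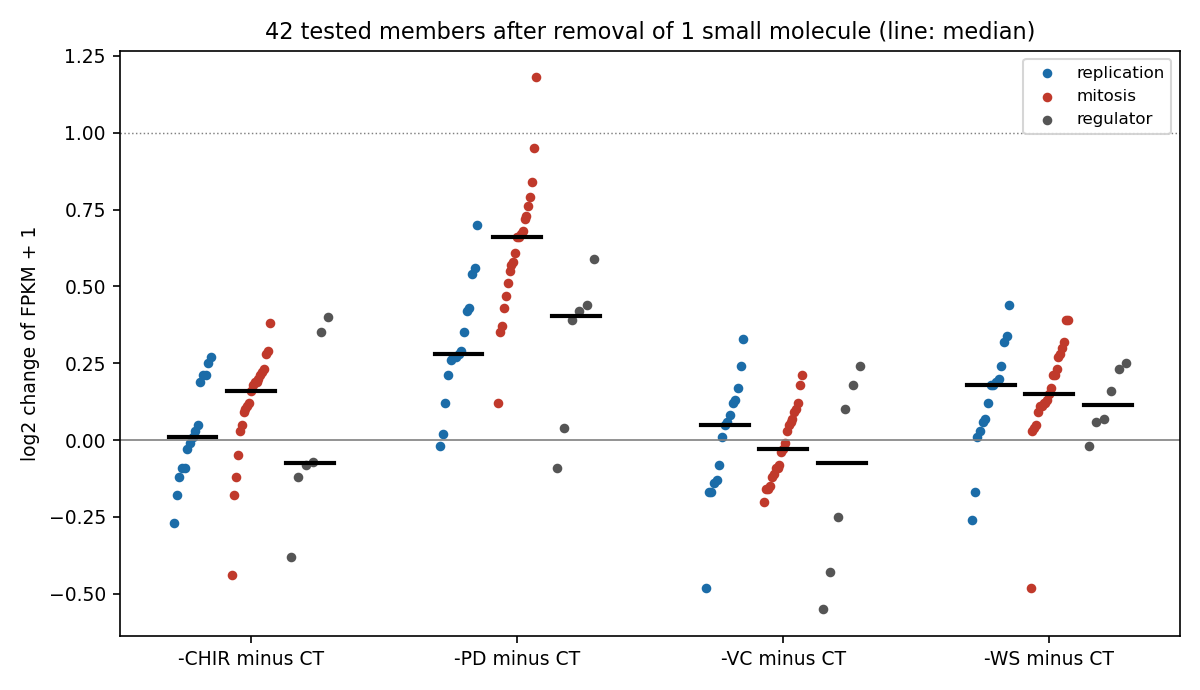
Log2 change against CT of each member tested, by role, for -CHIR, -PD, -VC and -WS, with a point per member, a bar at the median and a dotted line at the 2-fold limit. The mitosis points of -PD lie highest, around a median of 0.66, and Cenpa alone passes the dotted line.

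The arms were compared as a difference of differences, the change in CF1 cells minus the change in 4-factor cells, each within its own table. In it, the method, the stock of mice and the table cannot be told apart. At day 4 against day 0, 15 of 45 members had a lower change in the CF1 arm and 2 a higher change, where limma called 13.2% of all genes lower and 14.2% higher. The lower ones were 4 replication members (Mcm6, Cdt1, Gins1 and Rrm2), 10 mitosis members and Mybl2. The largest were Nusap1 (difference -2.33 ± 0.16 SE, limma adjusted p = 2.65e-08), Ube2c (-1.78 ± 0.22, adjusted p = 9.87e-06), Mybl2 (-1.71 ± 0.22, adjusted p = 1.3e-05) and Ccnb1 (-1.61 ± 0.16, adjusted p = 1.03e-06). Nusap1 had risen in the 4-factor arm and fallen in the CF1 arm. E2f8 and E2f2 had the higher changes in the CF1 arm. For E2f8 the day 4 levels were 20.3 and 21.1 FPKM in CF1 cells and 2.78 and 1.48 FPKM in 4-factor cells, from like levels at day 0 in both (difference 2.62 ± 0.23, limma adjusted p = 3.6e-07). For E2f2 the difference was 1.16 ± 0.22 (limma adjusted p = 0.000428), and 0.91 without 4-factor day 4 replicate 1. Of the mitosis members, Kif11 (-1.06) was at -1.0 and Kif23 (-1.05) at -0.99 both with TPM and with a median of ratios scaling, short of 2-fold.

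For iPSCs against day 0, 3 of 45 members had a lower change in the CF1 arm and 0 a higher one, where limma called 4.94% of all genes lower and 5.91% higher. They were Rrm2 (difference -1.03 ± 0.10 SE, limma adjusted p = 3.86e-06), Ube2c (-1.16 ± 0.22, adjusted p = 0.00121) and E2f8 (-1.19 ± 0.23, adjusted p = 0.0015). The starting levels differed here, since Rrm2 had 133 and 137 FPKM in CF1 MEFs and 78.6 and 72.7 FPKM in 129XOG2 MEFs, with 147 and 144 FPKM in CF1 iPSCs and 169 and 167 FPKM in 4-factor iPSCs. Without 4-factor iPSC replicate 2, 5 members were called, and without CF1 iPSC replicate 2 Ube2c was at -0.98, as was Rrm2 without 4-factor day 0 replicate 2. With a median of ratios scaling Rrm2 was at -0.93. The medians of the differences were -0.42 for replication members and -0.55 for mitosis members, against -0.03 for all genes.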

How the data were processed

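RNA of 30 libraries, 2 in each of 15 groups, was sequenced, and the authors deposited 3 tables of FPKM values per Ensembl gene. Per the submitters' processing notes, the tools were fastp 0.20.1, HISAT2 2.2.1 and StringTie 2.0, with build mm10. The annotation and the strand setting are not given in the sources used here. FPKM are not counts, and the depth is not given. In a search for whole-read steps, 11% to 22.8% of low single-exon values per library lay within 0.3% of a step. No depth was taken from that search. Values were used as log2(FPKM + 1) with a pseudocount of 1, which understates changes of low genes. Genes that reached 1 FPKM in 2 or more libraries were fitted together, table by table, with limma 3.58.1 (R 4.3.3), using all 5 groups of a table. The fit had a trended prior, and p-values were adjusted by Benjamini-Hochberg over all genes tested. The arm difference was an interaction over both arms. The code was tested on simulated data. Called genes had an adjusted p under 0.05 and at least 2-fold change. The 45 members and the other pathway lists were chosen with earlier results of these data known. Values per library were given for the 3 largest called changes of a comparison with at least 5 FPKM in the higher group, and for a set of role genes. Bub1, Rrm1, Ube2c in -PD, Cenpa and the other pathway genes with values per library were chosen after their values were seen, as were E2f7 and Dut. Alternatives were another pseudocount, no filter, TPM and median of ratios scaling, no minimum fold, a replicate block and leaving out each library. Whether replicate numbers pair the libraries is not known, and they were not used as a block in the main fits.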

Additional observations from a re-analysis of the deposited data

Results flagged for a closer look

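For 20 changes of members, the change from day 0 differed between the arms when the difference itself was tested with limma as an interaction, with Benjamini-Hochberg adjustment over 16205 genes. Each value is the log2 change in CF1 cells minus that in 4-factor cells. Method, stock of mice and table cannot be told apart in it. Limma called 13.2% of all genes lower and 14.2% higher for day 4, and 4.94% lower and 5.91% higher for iPSCs. The share of members with a higher change at day 4 was below that of all genes. For iPSCs the share of members with a lower change was near that of all genes. For day 4 the difference was positive for E2f8 (2.62 ± 0.23 SE, adjusted p = 3.6e-07) and E2f2 (1.16 ± 0.22, adjusted p = 0.000428). Among replication members it was -1.42 for Rrm2 (adjusted p = 3.31e-08), -1.35 for Mcm6 (adjusted p = 7.56e-08), -1.33 for Cdt1 (adjusted p = 1.59e-05) and -1.19 for Gins1 (adjusted p = 0.000156). Among the mitosis members it was -2.33 for Nusap1, -1.78 for Ube2c, -1.61 for Ccnb1, -1.56 for Cdc20 and -1.50 for Birc5. It was -1.41 for Aurka, -1.35 for Bub1, -1.29 for Ccna2, -1.06 for Kif11 and -1.05 for Kif23, with adjusted p from limma of at most 0.000102 for all 10 mitosis members. For Mybl2 it was -1.71 (adjusted p = 1.3e-05). Kif23 was at -0.89 without 4-factor day 4 replicate 1 and at -0.99 without CF1 day 4 replicate 1, below the 2-fold limit. For iPSCs the difference was -1.03 for Rrm2, -1.16 for Ube2c and -1.19 for E2f8, with adjusted p from limma of at most 0.0015.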

How the results depend on the processing

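Replicates are 2 per group, so the spread is estimated over the groups of a table, and the depth behind each FPKM is not given. Without a minimum fold, the members called were 16 at 4-factor day 2, 26 at day 4 (15 higher and 11 lower, a reversed balance), 18 at day 7, 24 from day 2 to day 4 and 25 from day 4 to day 7. They were 41 at CF1 day 4, 42 from CF1 day 8 to day 12 and 32 in CF1 iPSCs against day 0. They were 3 in -CHIR, 25 in -PD, 3 in -VC, 1 in -WS, 24 for the arm difference in iPSCs and 34 for that at day 4. In the same order, this rule called 13.4%, 47%, 34.5%, 37.4%, 30.1%, 61.3%, 48.2%, 78.7%, 9.39%, 14.4%, 33.9%, 9.26%, 30.4% and 52.1% of all genes tested, so the members' share was below that of all genes in CF1 iPSCs, -CHIR, -VC and -WS. With TPM the counts were 5 at 4-factor day 4, 9 at day 7, 23 at CF1 day 4 and 5 for the arm difference in iPSCs. TPM also moved the median change of all genes, which was then -0.13, -0.13, -0.04 and -0.08 in the same order. With no filter 3 were called from 4-factor day 2 to day 4, and with a pseudocount of 0.1, 3 in -PD. Leaving out each library gave 3 to 6 calls at 4-factor day 4, 3 to 5 from day 2 to day 4, 4 to 11 from day 4 to day 7, 1 to 3 in -PD and 2 to 5 for the arm difference in iPSCs. The change of the replication minus mitosis difference with a pseudocount of 0.1 was -1.0 at 4-factor day 7, 0.80, 2.33 and 0.66 at CF1 day 8, day 12 and iPSC, and -0.42 in -PD. With regulators counted in, it was -0.06, -0.85 and 0.28 at 4-factor day 2, day 7 and iPSC, 0.41, 1.18, 1.89 and 0.42 at CF1 day 4, day 8, day 12 and iPSC, and -0.15 in -CHIR. With medians over members, it was -0.06, -0.33 and -1.23 at 4-factor day 2, day 4 and day 7, -0.07 at CF1 day 4 (reversed), 0.45, 1.22 and 0.57 at CF1 day 8, day 12 and iPSC, and -0.19 in -VC. The cause of these shifts was not tested. Same-numbered replicates deviated together with correlations of -0.21 to 0.25. Such values cannot settle whether the numbers mark shared cultures or batches. With a replicate block 28 members were called in 4-factor iPSCs against day 0 and no count moved by over 1.5 times.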
